A study of Mus musculus with 4 samples.

Results

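The cytosolic ribosomal protein genes were taken by name from the annotation of the deposited matrices. Names beginning with Rpl or Rps and a digit were kept, with Rplp0 to Rplp2 and Rpsa. Pseudogene names and the Rps6k kinases were left out, and a gene had to have at least 100 UMIs (unique molecular identifiers, each standing for 1 captured transcript) over the 4 matrices. Of 86 matching names among 31053 genes, 84 passed. The pair that did not pass is Rpl10l, with 0 UMIs, and Rpl3l, with 1 UMI. The members comprise 34 small-subunit and 50 large-subunit names. Rps19bp1 matches by name only, since it encodes a protein that binds Rps19 and is no ribosomal protein. Fau and Rack1, whose products also join the ribosome, do not match and are described apart.

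Cytosolic ribosomes translate nuclear mRNA. Each is a small subunit that reads the message and a large subunit that forms the peptide bond, and nearly every protein of either is needed in a single copy. Ribosomal protein mRNAs are among the most abundant in a cell. They begin with a C followed by a run of pyrimidines, the 5' terminal oligopyrimidine (TOP) motif, through which mTORC1 and Larp1 control their translation. Activated T cells enlarge and make many new ribosomes before they divide.

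The samples were single-cell libraries (10x 3' chemistry) of splenic donor T cells, sorted as PI- H-2Kb+ TCRb+ on day 8 of acute graft-versus-host disease. BALB/c recipients had received 900 cGy, T cell-depleted bone marrow of CD45.1+ CD45.2+ C57BL/6 mice, and CD45.2+ regulatory T (Treg) cells sorted as CD4+ Foxp3-GFP+ CD25hi. Wild-type CD45.1+ conventional CD4+ and CD8+ T cells (Tconv) of C57BL/6 mice followed 2 days later. The 4 libraries differ in the Treg genotype. The Treg cells were wild type (CD226+/+TIGIT+/+) in the first, lacked CD226 (CD226-/-) in the second, lacked TIGIT (TIGIT-/-) in the next, and in the last lacked both (CD226-/-TIGIT-/-). CD226 is an activating and TIGIT an inhibitory receptor for shared ligands. They are called here the wild-type, CD226-null, TIGIT-null and double-null libraries, and values for 4 libraries are always given in that order. Each library is a pool of 3, and each genotype has 1 library, so single genotypes are set side by side without a test, and the loss of either receptor was tested over both states of the other. Classes are compared over the 4 libraries, whose spread includes any effect of genotype. The wild-type and CD226-null libraries were run in lane 3 and the others in lane 4, so that lane and TIGIT status cannot be told apart.

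The sequences at the transcript starts of 5 members are shown as examples of the shifts below. They are not the 5 largest, since Rps2 and Rpl37a, for example, moved more than Rps24. Rps27, Rps27rt and Rps24 were higher in Treg-origin cells, and Rps27l and Rpl22l1 were lower. Each sequence runs from 50 bases before to 20 bases from a start annotated by RefSeq (GRCm38.p6). RefSeq lists 2 starts for Rps27l and for Rps24, and 1 of them is shown. Capitals mark a run of at least 5 letters C or T that begins with C and lies nearest to the start shown. The windows are chr3:90213629-90213698 (minus strand) for Rps27, chr9:114982720-114982789 (minus) for Rps27rt, chr9:66946036-66946105 (plus) for Rps27l, chr14:24490628-24490697 (plus) for Rps24 and chr3:28805458-28805527 (plus) for Rpl22l1.
Rps27: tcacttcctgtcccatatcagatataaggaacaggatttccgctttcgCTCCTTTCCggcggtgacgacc
Rps27rt: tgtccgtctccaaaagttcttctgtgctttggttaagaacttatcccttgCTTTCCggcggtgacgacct
Rps27l: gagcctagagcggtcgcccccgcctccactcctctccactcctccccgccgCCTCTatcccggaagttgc
Rps24: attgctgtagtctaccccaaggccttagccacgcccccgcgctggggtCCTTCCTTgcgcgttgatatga
Rpl22l1: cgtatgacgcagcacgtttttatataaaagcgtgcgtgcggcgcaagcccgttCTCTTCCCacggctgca

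Rps27rt is a retrogene, a reverse-transcribed copy of the Rps27 mRNA. Its window shares a run of 19 letters with that of Rps27 from its own start onwards and differs upstream. Of the 345 bases of the Rps27 transcript, 341 recur without a mismatch as 1 run in the Rps27rt transcript, so that reads of both genes can hardly be told apart and both values are uncertain. The other paralogs differ more: over their aligned bases the transcripts were 75.5% identical for Rpl22 and Rpl22l1 and 76.4% for Rps27 and Rps27l.

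RefSeq promoters of 300 bases (250 before the start) were found for 64 of the 84 members. A C at the annotated start followed by 4 letters that are each C or T stood in 21.9% of these members and in 3.01% of all 27025 gene symbols with a promoter. CCGGAAG, on either strand, was found in 40.6% of members and in 9.93% of all symbols. CTTTCC, which overlaps the capitals of Rps27 and Rps27rt, was found on either strand in 54.7% and 29.3%. AAGATGG, on either strand, was found in 15.6% and 7.28%. The C-led pyrimidine start stood in 9 of the 38 matched members that fell in Treg-origin against conventional CD4 cells, in 3 of the 7 that rose and in 2 of the 19 that did not pass the test. A match describes these letters at the annotated start and says nothing of where transcription begins in these cells.

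After barcodes under 500 genes or over 10% mitochondrial UMIs were dropped, the libraries held 7654, 9045, 10383 and 9058 cells. Barcodes shared by a pair of libraries numbered between 23 and 36. Donor origin was read from the barcoded antibodies: on the log2 scale, CD45.1 over CD45.2 was below -0.6 in Treg-origin cells and above 2.2 in conventional cells. Conventional cells were CD4 or CD8 by whichever UMIs were more numerous. The classes held 332 to 462 Treg-origin, 2750 to 3100 CD4 and 2098 to 3415 CD8 cells in a library. Median UMIs per cell were 3922 to 5372 in Treg-origin, 7040 to 9013 in CD4 and 8887 to 11901 in CD8 cells. The 5 Treg markers summed to 926 to 951 CPM (UMIs of a gene per 1000000 UMIs of the class) in Treg-origin cells and to at most 175 CPM in conventional cells, and Foxp3 was 56.0 ± 7.02 CPM (SD, n = 4) against 1.61 ± 0.458 in CD4 cells. RNA of other blood cells was uneven in the Treg-origin class. The 5 neutrophil markers summed to 1717 and 1565 CPM in the wild-type and TIGIT-null libraries against at most 5.15 in the others, and the 5 erythroid markers summed to 997 CPM in the CD226-null library against 16.2 to 43.4. The 5 B and plasma cell markers summed to 253 CPM in the CD226-null library against 11.2 to 23.9, the 6 myeloid markers to 22.0 to 145 CPM and the 4 NK markers to 7.37 to 19.1 CPM. Ncr1, which marks NK cells, had no UMI in Treg-origin cells. Cells with more UMIs of the B and plasma cell, myeloid, neutrophil and erythroid markers were left out as an alternative only when the classes were compared. Other results, among them the contrasts between libraries and the paralog shares, were not repeated without them. Doublets were not called.

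Ribosomal protein transcripts took a smaller part of the RNA in Treg-origin cells than in CD4 cells of the same library, and the gap to CD8 cells was narrower. They made up 21.24%, 21.01%, 20.39% and 21.25% of all UMIs in Treg-origin cells, 22.07%, 22.39%, 22.84% and 22.52% in CD4 cells, and 21.88%, 21.49%, 22.10% and 21.82% in CD8 cells. The Treg-origin values lay below both conventional classes without overlap, while the CD4 and CD8 ranges overlapped by a narrow margin. Treg-origin minus CD4 was -0.823, -1.37, -2.44 and -1.27 percentage points, a mean difference of -1.48 ± 0.687 (SD, n = 4), and Treg-origin minus CD8 was -0.848 ± 0.577. Among cells with 3000 to 8000 UMIs these differences were -2.01 ± 0.457 and -0.443 ± 0.499, so that the gap to CD8 cells at matched depth was within its spread over libraries. CD8 cells were below CD4 cells in 4 of 4 libraries, by a mean of -0.63 ± 0.312 points. The mitochondrial share of UMIs, a sign of RNA quality, moved with the class as well, at 3.94% to 4.23% in Treg-origin, 3.76% to 3.93% in CD4 and 3.50% to 3.69% in CD8 cells. With mitochondrial UMIs taken out of the total, Treg-origin cells stood at -1.48 ± 0.733 points against CD4 and -0.768 ± 0.597 against CD8 cells. The small-subunit genes supplied 45.0% ± 0.157 of ribosomal protein UMIs in Treg-origin cells, 45.6% ± 0.0784 in CD4 cells and 45.6% ± 0.141 in CD8 cells. These shares set the genes against the other RNA of the same cells. The amount per cell moved with depth, since the median cell held 826 to 1161 ribosomal protein UMIs in Treg-origin, 1593 to 1979 in CD4 and 1950 to 2560 in CD8 cells.

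**Figure D1:**
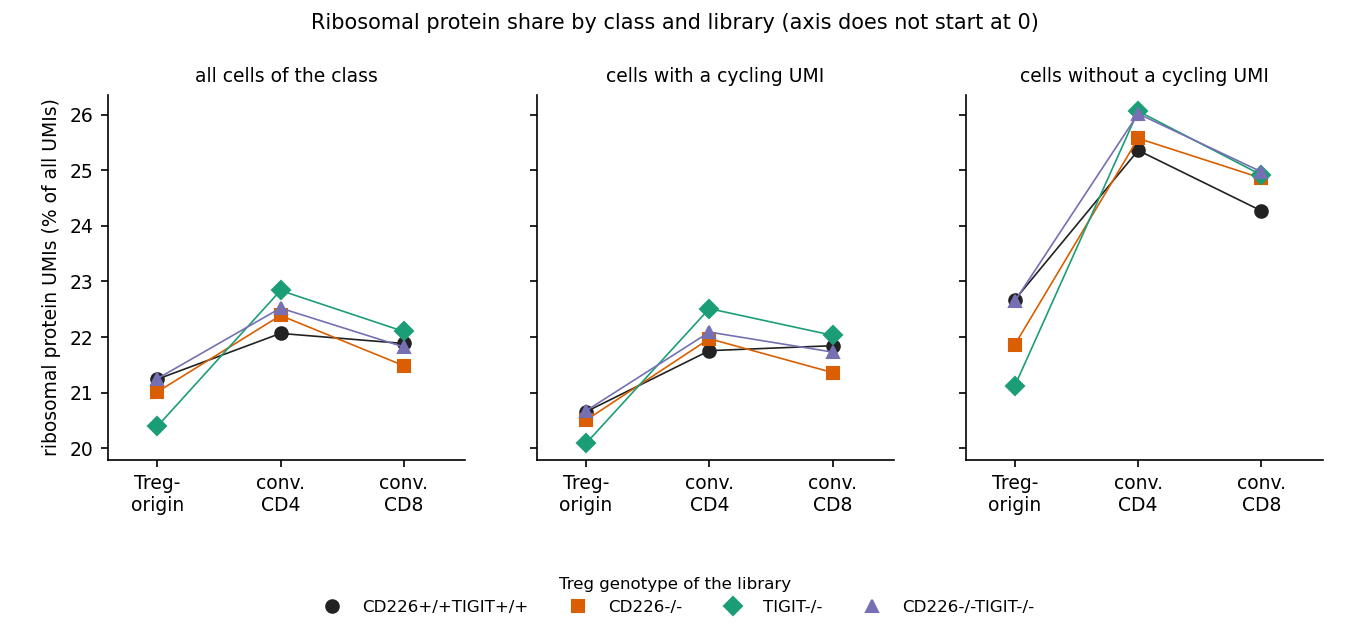
Ribosomal protein share of all UMIs in percent (y axis, not from 0) for Treg-origin, conventional CD4 and conventional CD8 cells (x axis), 1 line and symbol for each of the 4 libraries. The panels hold all cells, cells with at least 1 UMI of 8 cycling genes and cells with none; Treg-origin cells lie at 20.39% to 21.25% in the first panel, below the other classes, and the gap to CD4 cells is wider in the last.

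Cells with a UMI of 8 cycling genes held a smaller ribosomal protein share than cells without one (the genes are Mki67, Top2a, Cdk1, Ccna2, Ccnb1, Birc5, Cenpf and Tpx2, which encode proteins of replication and mitosis). A cycling UMI was present in 55.5% ± 3.38 of Treg-origin, 82.2% ± 1.83 of CD4 and 94.5% ± 1.27 of CD8 cells. Cells without one had a share higher by 3.67 ± 0.172 points in CD4, 3.01 ± 0.465 in CD8 and 1.60 ± 0.479 in Treg-origin cells (n = 4), in every library. Cells with more UMIs are more likely to show a cycling UMI, so the contrast was repeated in cells with 3000 to 8000 UMIs, where it was 3.76 ± 0.101, 3.47 ± 0.0866 and 2.49 ± 0.64 points. A single cycling UMI need not mark a dividing cell. A set of 27 barcodes had 10 or more neutrophil marker UMIs and at most 1 UMI of Cd3d, Cd3e, Cd3g and Trac. Their median depth was 7532 UMIs. Of these, 14 held a cycling UMI (51.9%, exact 95% interval 31.9% to 71.3%), a share close to that of Treg-origin cells. In 8 there were 5 or more cycling UMIs (29.6%, 13.8% to 50.2%), against 29.1% ± 3.89 of all Treg-origin cells. These barcodes were deeper than the Treg-origin cells, whose library medians were 3922 to 5372 UMIs, and depth was not matched. Barcodes of the Treg-origin class were not taken out of the set, and the intervals are wide. The comparison thus cannot say how often cells that do not divide show a cycling UMI. Whether the barcodes came from dividing cells was not tested. By number of cycling UMIs in the same depth range, counted after seeing the data, CD4 cells with 0, with 1 or 2 and with 5 or more had 25.9% ± 0.262, 24.5% ± 0.194 and 20.6% ± 0.435 ribosomal protein UMIs. The steps were 24.6% ± 0.173, 23.2% ± 0.253 and 20.5% ± 0.31 in CD8 cells and 22.7% ± 0.586, 21.6% ± 0.284 and 18.7% ± 0.697 in Treg-origin cells, downward in each library, with as few as 28 cells of 5 or more in a Treg-origin library. Depth was not equal within this range. Cells with 5 or more cycling UMIs were deeper than cells with 0 in every class and library. In CD4 cells of the TIGIT-null library the medians were 6210 against 4513 UMIs. Among cells without a cycling UMI the gap between Treg-origin and CD4 cells was -3.67 points, against -1.48 in all cells. That between Treg-origin and CD8 cells was -2.67. Within the Treg-origin class, cells with a Foxp3 UMI had 21.53%, 20.41%, 19.65% and 20.12% ribosomal protein UMIs. Cells without one had 21.13%, 21.26%, 20.56% and 21.65%, a lower value with Foxp3 in 3 of 4 libraries. The share was also lower with a Foxp3 UMI in CD4 and in CD8 cells of every library. In CD4 cells of the wild-type library it was 20.51% against 22.09%. Such cells were few, down to 19 in CD4 cells of the double-null library. Cells with a Foxp3 UMI were deeper than the rest in every Treg-origin and CD8 library. In CD8 cells of the wild-type library the medians were 17130 against 11855 UMIs. CD4 cells with a Foxp3 UMI were deeper in all but the CD226-null library. The split by Foxp3 was not repeated at matched depth.

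Most members fell in Treg-origin cells against conventional CD4 cells, and a few rose. In edgeR's quasi-likelihood test on the 8 class sums with library as a block, 52 of 84 members were lower and 8 higher at an adjusted p of at most 0.05. Among all 10775 genes tested, 20.5% were lower and 21.5% higher. The median log2 fold was -0.11 over the members and 0.01 over all genes. Of the 34 small-subunit names 23 were lower and 4 higher, and of the 50 large-subunit names 29 were lower and 4 higher. CPM ranges of the 4 libraries did not overlap between the classes for 52 members, where 40.2% of all genes tested had ranges apart. The shifts were small: 11 members were called and changed by more than 1.2-fold, a mark that 35.1% of all genes passed. Treg-origin and conventional cells came from different donor mice with different CD45 alleles, which cannot be told apart from the class. With the blood cell marker limit of at most 4 UMIs in a cell, an alternative chosen after seeing the data, 52 were lower and 6 higher.

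**Figure D2:**
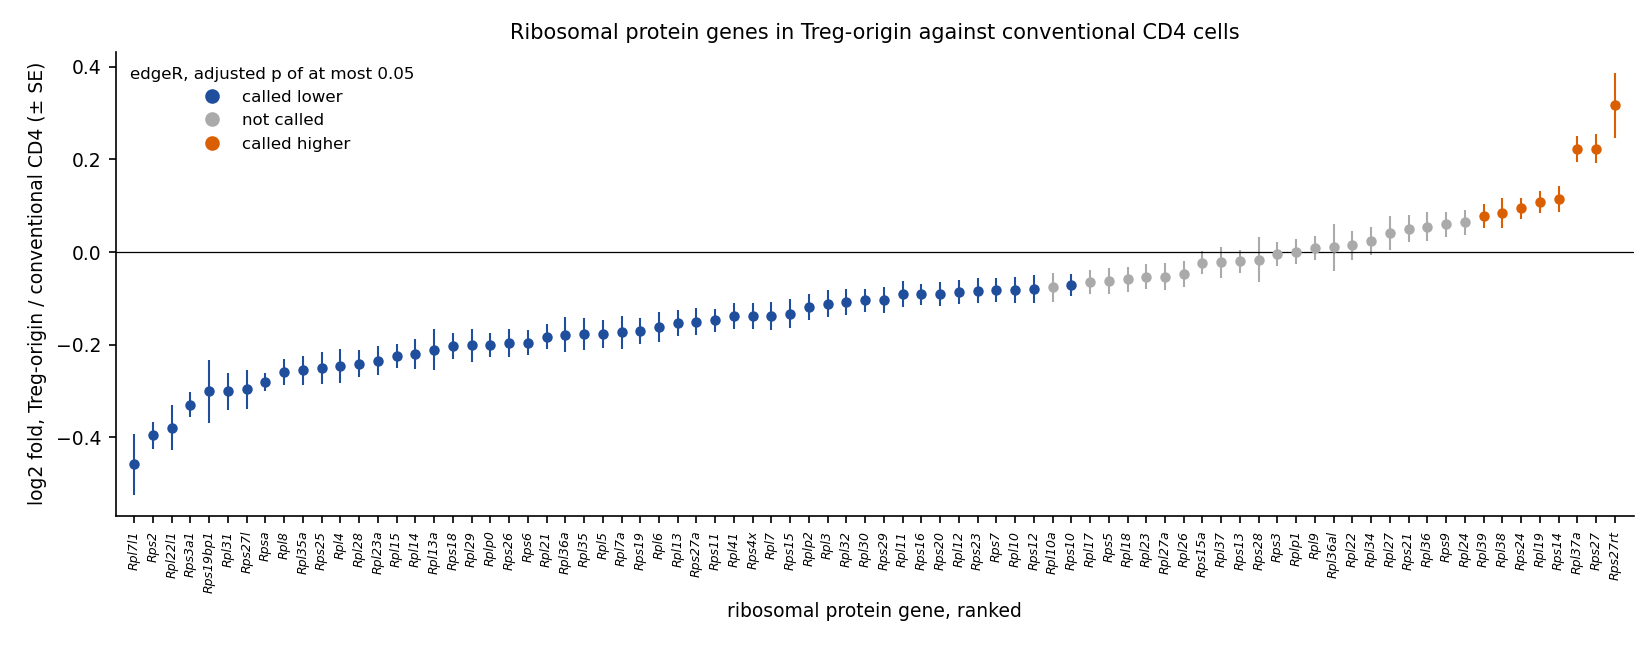
Log2 fold of Treg-origin over conventional CD4 cells (y axis) for 80 members ranked on the x axis, with the SE taken from the F statistic; Rpl39l, at -1.47 and with few UMIs, is among those left off. Blue members were called lower, orange members higher and grey members neither, and most lie below 0.

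Abundant members of the small subunit were among those that fell. Rps2, which lines the mRNA entry channel, stood at 4817, 4561, 4444 and 4810 CPM in Treg-origin cells and at 6071, 5959, 6235 and 6044 in CD4 cells. All Treg-origin libraries lay below all CD4 libraries, and the log2 fold was -0.40 (SE 0.0286, edgeR adjusted p = 1.96e-07). Rps3a1, a small-subunit protein, stood at 3684, 3349, 3294 and 3672 CPM against 4416, 4305, 4257 and 4451. Its ranges were also apart, with a log2 fold of -0.33 (SE 0.0267, edgeR adjusted p = 5.70e-07).

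Further members moved the same way. Rpsa, the laminin receptor and a ribosomal protein, stood at 6433, 6314, 6260 and 6384 CPM in Treg-origin and 7672, 7699, 7562 and 7651 in CD4 cells, a log2 fold of -0.28 (SE 0.019, edgeR adjusted p = 1.08e-07). Its values within a class differed by little between libraries and were far apart between classes. Rps27l, a paralog of Rps27 that p53 induces, fell by 0.30 on the log2 scale. Of the large-subunit proteins, Rpl31 fell by 0.30, Rpl8, a protein near the peptidyl transferase centre, by 0.26, and Rpl35a by 0.26. Rpl22l1, a paralog of Rpl22, fell by 0.38 and Rpl7l1, a paralog of Rpl7, by 0.46, the latter at 74.5 ± 4.78 against 101 ± 3.82 CPM (SD, n = 4). Rps19bp1, which is no ribosomal protein, fell by 0.30 at 39.1 ± 1.36 against 47.7 ± 3.01 CPM. For each of these, the 4 Treg-origin libraries lay below the 4 CD4 libraries.

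The 8 members that rose were Rps27rt, Rps27, Rpl37a, Rps14, Rpl19, Rps24, Rpl38 and Rpl39. Rps27, a zinc finger protein of the small subunit, stood at 1567, 1598, 1477 and 1486 CPM in Treg-origin and 1287, 1334, 1287 and 1300 in CD4 cells, a log2 fold of 0.22 (SE 0.0312, edgeR adjusted p = 7.46e-05). Its ranges were apart. Rps27rt, which shares nearly all its sequence with Rps27, stood at 48.6, 48.6, 45.8 and 56.6 CPM against 36.0, 39.9, 40.5 and 42.9, a log2 fold of 0.32 (SE 0.07, edgeR adjusted p = 0.00253). Rpl37a, a large-subunit protein, stood at 2001, 2002, 1992 and 1868 CPM against 1661, 1671, 1751 and 1606, a log2 fold of 0.22 (SE 0.0287, edgeR adjusted p = 3.75e-05). The lowest Treg-origin value, in the double-null library, was still above the highest CD4 value. Rps24, whose gene is mutated in some patients with Diamond-Blackfan anaemia, rose by 0.09, Rps14, lost in the human 5q- syndrome, by 0.11, and Rpl19 by 0.11 on the log2 scale. Rpl38 and the X-linked Rpl39 were each 0.08 higher, the former with overlapping ranges.

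**Figure D3:**
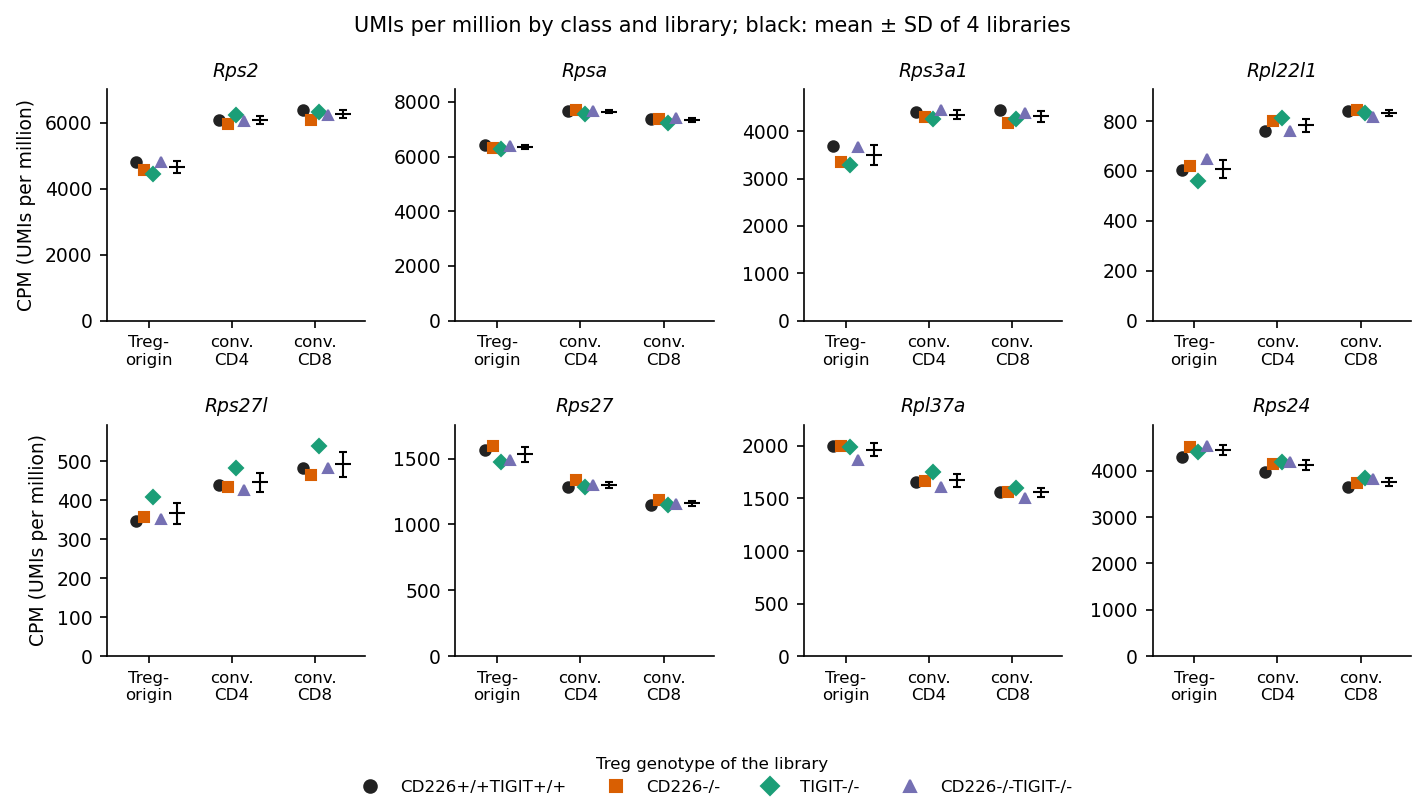
CPM (y axis, from 0) of 8 members in Treg-origin, conventional CD4 and conventional CD8 cells (x axis), 1 symbol for each library and the mean ± SD of the 4 libraries in black. Rps2, Rpsa, Rps3a1, Rpl22l1 and Rps27l are lowest in Treg-origin cells, and Rps27, Rpl37a and Rps24 are highest there.

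The members as a whole moved with which cells were taken, and most calls of the rises were lost. The median log2 fold of the members was -0.11 in all cells, -0.14 in cells with 3000 to 8000 UMIs and -0.26 in cells without a cycling UMI. Among cells without a cycling UMI, 67 of 83 members were lower in Treg-origin than in CD4 cells and 0 were higher, where edgeR called 10.0% of 7835 genes lower and 11.6% higher. At an unadjusted p under 0.05 edgeR also gave 0 higher members, and no other tool was run on these cells. Rps27 was then 0.02, Rpl37a 0.035, Rps24 -0.095 and Rps14 -0.031 on the log2 scale, while Rps2 fell by 0.59 and Rpsa by 0.47. Among cells with 3000 to 8000 UMIs, 52 of 83 members were lower and 1, Rpl37a at 0.14, higher (11.9% and 13.7% of 9367 genes). The share of cells with a cycling UMI differs between these classes as given above, and its part in the rises over all cells was not tested beyond this.

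**Figure D4:**
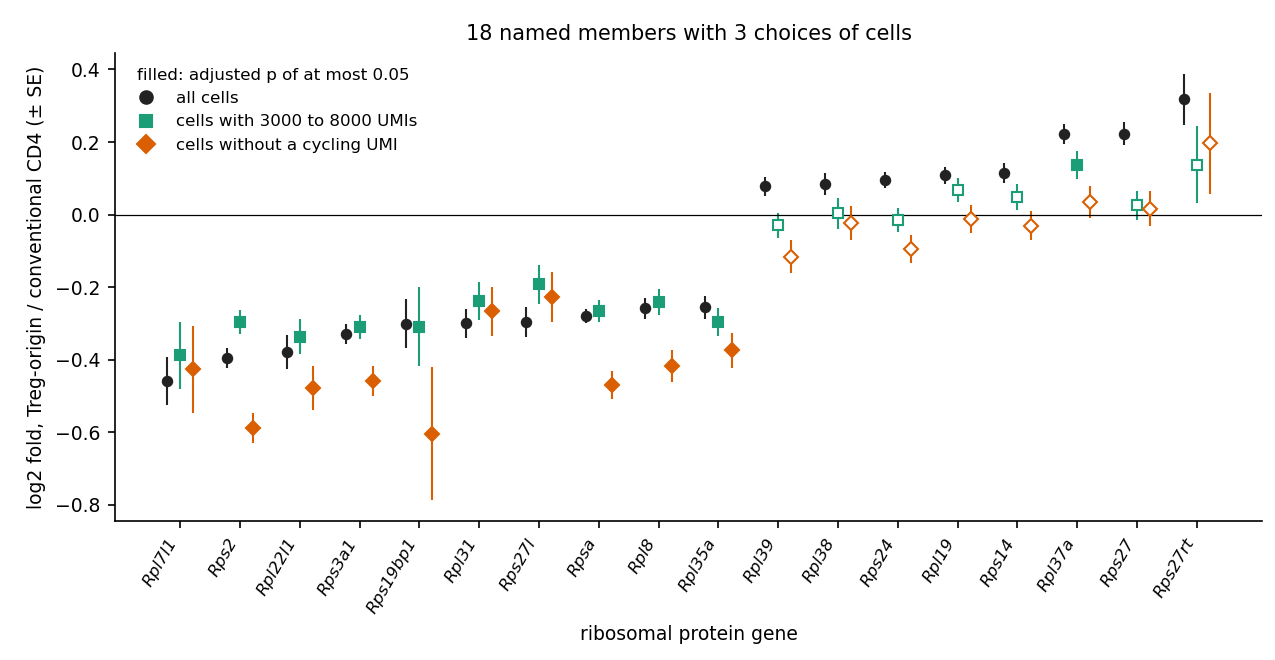
Log2 fold of Treg-origin over conventional CD4 cells (y axis, ± SE) for 18 members with large called changes (x axis), in all cells, in cells with 3000 to 8000 UMIs and in cells without a cycling UMI. The 10 members shown that fell stay below 0 in each choice of cells, and the 8 that rose lie between -0.12 and 0.20 in cells without a cycling UMI, where none was called.

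A second scaling asks how a member moved against the other members. With the summed ribosomal protein UMIs as library size, 26 members were higher and 26 lower in Treg-origin than in CD4 cells, where 27.9% of all genes were higher and 13.2% lower. This scaling moved the median of all genes from 0.01 to 0.12 and shifts the members by about as much, so that its calls are no evidence beyond the folds above. On it Rps2 fell by 0.29, Rpl22l1 by 0.27 and Rpsa by 0.17, and Rps27 was 0.33, Rpl37a 0.33 and Rps24 0.20 higher. Rpl22, which did not pass the test against all RNA (0.01), was 0.12 higher on this scale (edgeR adjusted p = 0.0031), which is the same shift. A ratio among members does not show which of them stayed level.

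Conventional CD8 and CD4 cells differed less. In edgeR, 34 of 84 members were lower and 11 higher in CD8 cells (23.7% and 22.9% of 11490 genes), with a median log2 fold of -0.03 over the members and -0.00 over all genes. CPM ranges did not overlap for 25 members, where 30.3% of all genes had ranges apart. With ribosomal protein UMIs as library size 20 were lower and 24 higher (18.9% and 26.9%). No called member passed 1.2-fold, a mark that 21.9% of all genes passed. Without the library as a block 11 members were lower and 3 higher. Among cells without a cycling UMI 12 were lower and 6 higher (6.23% and 6.76% of 7988 genes), and at 3000 to 8000 UMIs 48 were lower and 5 higher (16.3% and 18.1% of 9939 genes). Without the double-null library 31 were lower and 6 higher.

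Rpl29, a large-subunit protein, stood at 1894, 1903, 1923 and 1834 CPM in CD8 and 2145, 2233, 2203 and 2163 in CD4 cells, with a log2 fold of -0.20 (SE 0.0154, edgeR adjusted p = 8.62e-07). The ranges were apart, and this was the largest called fall. Rps27 was lower in CD8 cells by 0.16, Rpl30 by 0.13, Rps19, the gene most often mutated in Diamond-Blackfan anaemia, by 0.12, and Rps24 by 0.12 on the log2 scale. Rpl41, the smallest ribosomal protein, stood at 2858, 2875, 3205 and 3103 CPM in CD8 and 2539, 2656, 2983 and 2762 in CD4 cells, a log2 fold of 0.15 (SE 0.0161, edgeR adjusted p = 1.26e-05). Its ranges overlapped, although CD8 cells were higher in each library. Rps27l was 0.15 higher and Rpl22l1 0.10 higher in CD8 cells.

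Against conventional CD8 cells, 45 members were lower and 13 higher in Treg-origin cells in edgeR (26.4% and 26.1% of 10899 genes), with a median of -0.09 against -0.00 over all genes. This comparison shares the Treg-origin sums with the first and the CD8 sums with the second, so its values are set beside theirs and not counted as support. Rpl7l1 was lower by 0.52, Rpl22l1 by 0.50, Rps27l by 0.47, Rps2 by 0.46 and Rpl31 by 0.41 on the log2 scale. Rps27rt was 0.38, Rps27 0.36, Rpl37a 0.30 and Rps24 0.20 higher. The 4 libraries did not overlap for 48 members, against 48.1% of all genes, and 18 were called and past 1.2-fold, against 46.8%. With ribosomal protein UMIs as library size 32 were lower and 30 higher (20.3% and 31.1%), and at 3000 to 8000 UMIs 33 were lower and 10 higher (19.9% and 20.9% of 8445 genes). Without the wild-type library 45 were lower and 8 higher. Among cells without a cycling UMI 62 were lower and 1 higher (14.8% and 15.6% of 5784 genes), with 80 to 200 such CD8 cells in a library.

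The lesser partners of several paralog pairs took a smaller part of the pair in Treg-origin cells. Rpl22l1 made up 33.7%, 34.1%, 31.8% and 34.6% of Rpl22l1 plus Rpl22 UMIs in Treg-origin cells, 39.96%, 40.5%, 39.96% and 39.1% in CD4 and 43.2%, 43.4%, 41.5% and 41.9% in CD8 cells. The 3 classes did not overlap, and the exact (Clopper-Pearson) 95% interval of a Treg-origin share was at its widest 32.5% to 35.8%. Rpl22 itself was 1202 ± 15.2 CPM in Treg-origin, 1181 ± 30.2 in CD4 and 1126 ± 33.9 in CD8 cells (SD, n = 4). Its log2 fold between Treg-origin and CD4 cells was 0.01 (edgeR adjusted p = 0.745).

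Rps27l made up 18.2%, 18.2%, 21.6% and 19.2% of Rps27l plus Rps27 UMIs in Treg-origin cells, 25.4%, 24.6%, 27.3% and 24.7% in CD4 and 29.6%, 28.2%, 32.0% and 29.4% in CD8 cells. The classes were apart, and the TIGIT-null library was highest in each. In cells without a cycling UMI the mean shares were 13.0%, 14.9% and 16.7%, in the same order of classes but closer together. Rpl7l1 made up 2.88% ± 0.178 of its pair with Rpl7 in Treg-origin, 3.57% ± 0.138 in CD4 and 3.79% ± 0.115 in CD8 cells. Rpl36al, the autosomal partner of the X-linked Rpl36a, went the other way, with 34.4% ± 1.98 in Treg-origin, 31.5% ± 1.15 in CD4 and 31.9% ± 1.05 in CD8 cells, and its ranges overlapped. Rpl10l and Rpl3l had no UMI in any class of any library, where a count of 0 in the Treg-origin cells of the wild-type library allows a share of up to 0.0457% of Rpl10l plus Rpl10 UMIs (3 counts of the total).

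**Figure D5:**
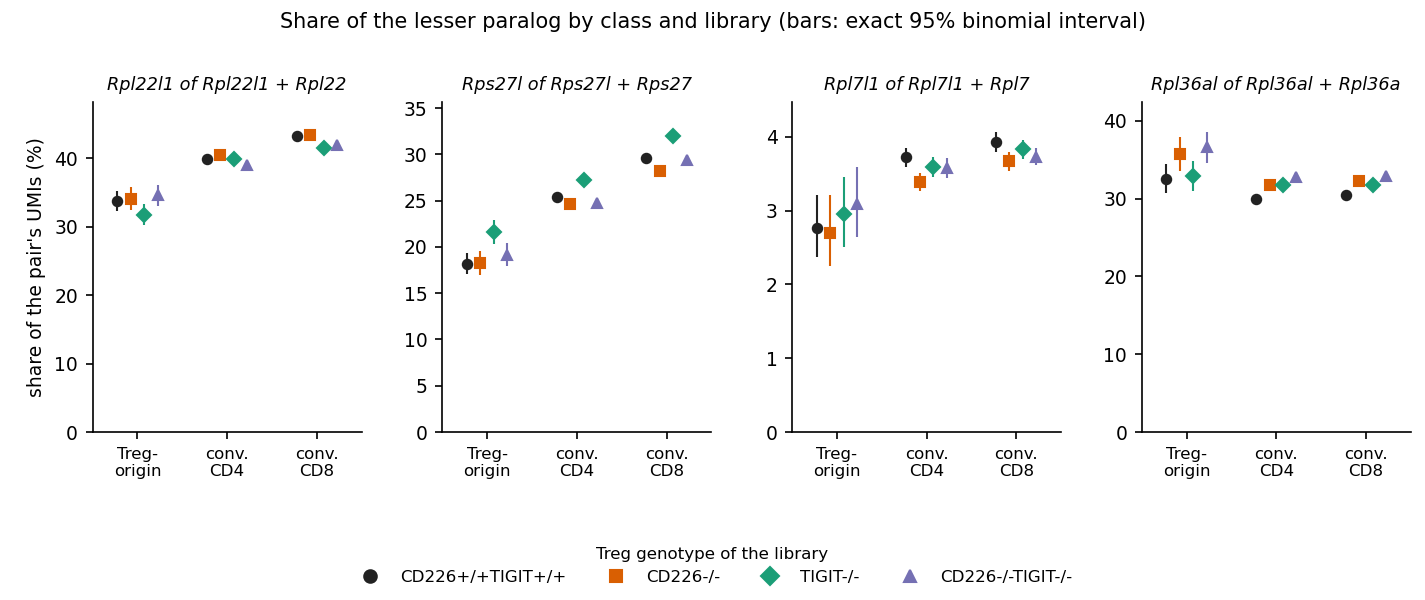
Share of the lesser paralog in the UMIs of its pair in percent (y axis, from 0) for 4 pairs, by class (x axis) and library (symbols), with exact 95% binomial intervals that hold counting error only. Rpl22l1, Rps27l and Rpl7l1 are lowest in Treg-origin cells in each library, and Rpl36al is not.

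Rpl39l, known as the testis-rich paralog of Rpl39, was rare. In Treg-origin cells it had 7 UMIs in 4 of 367 cells of the wild-type library and none in 332, 462 and 376 cells of the others, where a count of 0 allows up to 0.904%, 0.649% and 0.798% of cells with a UMI (3 counts of the total). In CD4 cells it was seen in 0.945%, 1.68%, 0.387% and 0.924% of cells and in CD8 cells in 0.477%, 1.42%, 0.345% and 6.68%. The double-null library stood apart in CD8 cells, with 538 UMIs in 228 cells against 17 to 81 UMIs in the others. Treg-origin cells were shallower, as given above. The edgeR call against CD8 cells (adjusted p = 0.0478) rests on these few counts, and that against CD4 cells was not made (adjusted p = 0.13). Without the double-null library Rpl39l was lower in CD8 than in CD4 cells, by 1.04 on the log2 scale (edgeR adjusted p = 0.000829), against 0.42 higher with it (adjusted p = 0.559).

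The 4 X-linked members are Rps4x, Rpl10, Rpl36a and Rpl39. Rps4x, a small-subunit protein, stood at 3526, 3373, 3244 and 3423 CPM in Treg-origin and 3703, 3709, 3716 and 3678 in CD4 cells and fell by 0.14 on the log2 scale. The classes were apart. Rpl36a fell by 0.18 and Rpl10 by 0.08, while Rpl39 was 0.08 higher.

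Members varied little between libraries within a class. Of the 83 members that averaged 20 CPM or more, the highest library was at most 1.2 times the lowest for 82 in Treg-origin, 83 in CD4 and 81 in CD8 cells, with median ratios of 1.08, 1.06 and 1.06. Of all genes at that level 37.8%, 87.7% and 86.1% stayed within 1.2 times. Of all genes with 500 CPM or more, members included, 85.1%, 94.5% and 91.8% did. These were 288, 292 and 291 genes with 76, 78 and 78 members among them, all of which stayed within 1.2 times. Other abundant genes alone thus stayed within it less often than these shares. The 5 contrasts between Treg genotypes were CD226 loss with TIGIT present, CD226 loss with TIGIT absent, TIGIT loss with CD226 present, TIGIT loss with CD226 absent, and double loss. In Treg-origin cells 0, 1, 0, 0 and 0 members passed 1.2-fold, where 26.8%, 27.6%, 23.0%, 28.5% and 25.1% of genes with at least 20 CPM did. In CD4 cells 0 passed in each contrast (2.38%, 7.31%, 2.28%, 2.30% and 3.64%), and in CD8 cells 1, 0, 0, 0 and 1 passed (5.97%, 5.89%, 2.28%, 3.47% and 3.87%). Abundant genes, members included, pass less often. Among genes with at least 500 CPM the share was 6.60%, 3.82%, 3.82%, 4.51% and 4.86% in Treg-origin cells. It was 1.03%, 3.77%, 2.40%, 0.685% and 2.05% in CD4, and 4.12%, 4.81%, 2.06%, 2.75% and 3.44% in CD8 cells. The member past the mark in Treg-origin cells was Rps27rt, 1.23 times as high in the double-null as in the TIGIT-null library. In CD8 cells they were Rps19bp1, 0.807 times as high in the CD226-null as in the wild-type library, and Rps27rt, 1.31 times as high in the double-null as in the wild-type library. All have under 60 CPM, and none of these contrasts has a replicate.

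The loss of CD226 and the loss of TIGIT were also tested as additive terms over the 4 libraries of each class in edgeR, a fit chosen after seeing the data that leaves 1 residual degree of freedom and takes the effects to add up. In Treg-origin cells 0 of 83 members were called for either loss, where 0.466% and 0.396% of 8590 genes were higher and lower with CD226 loss and 0.151% and 0.244% with TIGIT loss. At an unadjusted p under 0.05 there were 0 members with CD226 loss and 1, lower, with TIGIT loss, and no other tool was run. Rpl39l was the member called in conventional cells, which are wild type in every library. With CD226-null or double-null Treg cells it was 0.93 higher on the log2 scale in CD4 (edgeR adjusted p = 0.00621) and 3.44 higher in CD8 cells (adjusted p = 0.000435), where 1.53% and 0.173% of all genes were higher. The UMIs of Rpl39l over the 4 libraries were 51, 135, 42 and 49 in CD4 and 23, 81, 17 and 538 in CD8 cells. The CD4 count was thus high in the CD226-null library alone. The CD8 count was by far the highest in the double-null library. No other member was called in conventional cells for either loss.

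Over all members, the share in Treg-origin cells of the CD226-null library was 0.229 points below wild type, and that of the TIGIT-null library 0.849 points below. The TIGIT-null Treg-origin cells had the lowest share of the class (20.39%, exact 95% interval 20.34% to 20.45%, counting error only), while the CD4 cells beside them had the highest of theirs. The double-null Treg-origin cells were within 0.00901 points of wild type. With antibody limits of -1.5 and 3 the range over Treg-origin libraries was 0.496 points, against 0.858 with the main limits. The median log2 ratio of the members was between -0.05 and 0.06 in each of the 5 contrasts in Treg-origin cells. In Treg-origin cells Rps27rt, Rpl4 and Rps27l varied most between libraries, Rpl4 at 1419, 1333, 1203 and 1357 CPM and Rps27l at 347, 357, 407 and 352. Rpl22, at 1189, 1195, 1201 and 1224 CPM, was among the 3 that varied least, with Rpl27a and Rpsa.

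Members also differed in how their level moved with a cycling UMI. In cells with 3000 to 8000 UMIs, CPM was higher in cells without a cycling UMI, with the 4 libraries apart, for 69 of 83 members in CD4 (15.4% of 5026 genes), 65 in CD8 (11.2% of 4935) and 49 in Treg-origin cells (5.65% of 5065). Rps27 was higher by a mean log2 ratio of 0.46 ± 0.02 in CD4, 0.41 ± 0.05 in CD8 and 0.40 ± 0.11 in Treg-origin cells (SD, n = 4). Rpl37a was 0.35 ± 0.03 higher in CD4 and Rps14 0.38 ± 0.02. Rps27l was lower in cells without a cycling UMI, at a log2 ratio of -0.36 ± 0.04 in CD4, -0.43 ± 0.08 in CD8 and -0.20 ± 0.09 in Treg-origin cells. In CD4 cells Rps2 stood at 0.07 ± 0.02 and Rpl22l1 at 0.04 ± 0.09. These ratios are descriptions without a test.

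Several other lists of the translation machinery were also mostly lower in Treg-origin than in CD4 cells, and the regulators were not. Of the proteins joined to the ribosome outside the name rule, Fau was 0.23 higher (3741 against 3157 CPM on average) and Rack1 fell by 0.13. Of 7 elongation factors 6 fell and 1 rose, of 33 initiation factors 22 fell and 2 rose, and of 8 other TOP mRNAs 7 fell and 1 rose, among them Npm1, a nucleolar chaperone, by 0.57 and Nap1l1 by 0.68. Eif3b, an initiation factor subunit, fell by 0.61, Eif2s1 by 0.51 and Eif5a by 0.48. Of 78 mitochondrial ribosomal protein genes 41 fell and 2 rose, with a median of -0.23, and Mrps18b fell by 0.79. Of 13 regulators of the class 1 rose, 4 fell and 8 did not pass the test. Eif4ebp1, a translational repressor that mTORC1 inactivates, rose by 1.07 (28.0 against 13.2 CPM on average, edgeR adjusted p = 5.01e-06), and Larp1, Rps6kb1, Mtor and Larp4 fell by 0.48, 0.39, 0.32 and 0.25. All of these medians and counts stand beside 20.5% lower and 21.5% higher among all genes.

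In CD8 against CD4 cells 2 lists were mostly higher, unlike the members. Of the 33 initiation factors 19 were higher and 4 lower, and of the 78 mitochondrial ribosomal protein genes 49 were higher and 5 lower, with Mrps36 0.36 higher, against 22.9% and 23.7% of all genes. Of the 7 elongation factors 4 were lower and 2 higher, with Eef1a1, which brings aminoacyl-tRNA to the ribosome, lower by 0.08. Fau and Rack1 were each lower in CD8 cells, by 0.10. Of the 8 other TOP mRNAs 2 were higher and 2 lower, and of the 13 regulators 2 were higher and 1 lower. Of 9 ribosomal protein pseudogenes 7 could be tested, and edgeR called 0 of them in any of the 3 comparisons, as did DESeq2. At an unadjusted p under 0.05 edgeR had 1 lower and 0 higher in each comparison. Snhg6, a snoRNA host gene, fell by 0.48 in Treg-origin against CD4 cells, while 3 of 10 such genes had counts enough for the test.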

How the data were processed

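The 4 matrices hold whole-number UMI counts per gene and cell, deposited by the authors, with 2 antibody counts per cell. Per the submitters' processing notes they were made with Cell Ranger 3.1.0 on mm10, and no values had been normalized. Barcodes under 500 genes or over 10% mitochondrial UMIs were dropped. The sums of UMIs by class and library were tested with edgeR 4.0.16 (R 4.3.3; TMM, filterByExpr, quasi-likelihood F test, Benjamini-Hochberg over all genes tested, called at 0.05 or below), with library as a block. SE is the absolute log2 fold over the square root of F. CPM is per 1000000 UMIs of a class sum. The libraries pair the classes by design, since both come from the same pool. Deviations from the class means over 11490 genes correlated at 0.17 to 0.31 for CD8 with CD4, 0.14 to 0.22 for Treg-origin with CD8 and -0.0044 to 0.076 for Treg-origin with CD4 (log2 of CPM plus 1). Counts summed to 1747477 to 2305761 UMIs per library in Treg-origin and at least 25441326 in conventional classes, and intervals (exact binomial, 95%) hold counting error only. The loss of each receptor was also fitted as an additive term over 4 libraries of a class. The fitting code was tested on simulated data, and DESeq2 1.42.0 was an alternative, with other filters, antibody limits and cell choices. Named members are the 12 largest called rises and falls of a comparison, the paralog pairs, the X-linked members, and in each class the 3 that varied most and least between libraries. In other lists at most 4 called genes were named. Results of some items are not reported here, though counts over the members include them. The members and lists were chosen with earlier results of these data known. Python 3.11.15, numpy 2.4.6 and scipy 1.17.1 were used.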

Additional observations from a re-analysis of the deposited data

Results flagged for a closer look

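The 135 groups of 4 library values were those of named members and of the ribosomal protein share of each class. In 10 of them 1 library was set apart from the other 3 by Dixon's test for an outlier at the 95% level. Chance marks about 1 group in 20. In Treg-origin cells the TIGIT-null library was low for Rpl27a (3431 CPM) and Rpl7 (2368 CPM) and high for Rps27l (407 CPM), and the double-null library was low for Rpl37a (1868 CPM). In CD4 cells the wild-type library was low for Rpl30 (2456 CPM), the TIGIT-null library high for Rpl36a (868 CPM) and the double-null library low for Rpl39 (1880 CPM). In CD8 cells the wild-type library was high for Rpl10a (2550 CPM) and Rpl7 (2694 CPM), and the TIGIT-null library high for Rpl27a (3452 CPM).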

How the results depend on the processing

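Of the log2 folds of named members under the alternatives, 1074 kept direction and side of the threshold, 174 kept direction but lost the call, 16 gained one and 41 changed sign; the cause was not tested. For Treg-origin against CD4 cells, members called higher numbered 3 with no filter on low counts, 26 with ribosomal protein UMIs as library size (26 lower), 5 with 12 sums in 1 fit, 5 with antibody limits of -1.5 and 3, 0 without cycling UMIs, 1 at 3000 to 8000 UMIs and 3 in Treg-origin cells with more Cd4 than Cd8 UMIs. For CD8 against CD4 the numbers were 24 higher and 20 lower with ribosomal protein UMIs as size, 11 lower with 12 sums, 6 higher and 12 lower without cycling UMIs and 5 higher at 3000 to 8000 UMIs. For Treg-origin against CD8 they were 7 higher with no filter, 30 with ribosomal protein UMIs as size, 1 without cycling UMIs and 8 with more Cd4 than Cd8 UMIs. Without the replicate block, 3 members were higher and 11 lower in CD8 against CD4, and the block moved no other count of calls by more than 1.5 times (6 higher and 48 lower, and 11 higher and 41 lower, in the Treg-origin comparisons). Leaving out 1 library each gave 6 to 11 higher and 46 to 56 lower for Treg-origin against CD4, 6 to 10 and 23 to 42 for CD8 against CD4 (6 higher without the double-null library), and 8 to 15 and 40 to 45 for Treg-origin against CD8 (8 higher without the wild-type library).

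Differences of the ribosomal protein share became -3.67 (Treg-origin minus CD4), -0.998 (CD8 minus CD4) and -2.67 points (Treg-origin minus CD8) without cycling UMIs, -1.57 for CD8 minus CD4 and -0.443 (SD 0.499) for Treg-origin minus CD8 at 3000 to 8000 UMIs, and -1.58 for Treg-origin minus CD8 with the stricter antibody limits. Leaving out 1 library they ran from -1.70 to -1.16, -0.779 to -0.539 and -0.973 to -0.562. The range over Treg-origin libraries was 1.54 points without cycling UMIs. Members past 1.2-fold between libraries without cycling UMIs numbered 1, 4, 4, 3 and 1 over the 5 contrasts in Treg-origin, 1 in CD4 (TIGIT loss, CD226 absent) and 2, 2, 1, 2 and 3 in CD8 cells. With a floor of 1000 genes and a limit of 5% mitochondrial UMIs they were 0, 1, 1 and 1 in the last 4 contrasts in Treg-origin cells. Paralog shares without cycling UMIs, for Treg-origin, CD4 and CD8, were 29.2%, 34.4% and 37.1% for Rpl22l1, 13.0%, 14.9% and 16.7% for Rps27l and 2.64%, 2.86% and 2.85% for Rpl7l1, and with the stricter cell filter 40.5% (Rpl22l1) and 26.9% (Rps27l) in CD4 cells.

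Signs changed for Treg-origin against CD4 without cycling UMIs in Rpl19 (-0.013), Rpl38 (-0.022), Rpl39 (-0.12), Rps14 (-0.031), Rps24 (-0.095), Rpl22 (-0.13) and Rpl36al (-0.13), and at 3000 to 8000 UMIs in Rpl39 (-0.030), Rps24 (-0.015), Rpl22 (-0.041) and Rpl36al (-0.035). Rpl10 was 0.028 with ribosomal protein UMIs as size. Rpl22 and Rpl36al, not called, were -0.056 and -0.060 with no filter, -0.022 and -0.026 with 12 sums and -0.020 and -0.072 with stricter antibody limits. Leaving out 1 library gave -0.0049 (without wild type) to 0.026 (without TIGIT-null) for Rpl22 and -0.022 to 0.057 for Rpl36al, at the same libraries (-0.018 without double-null), and Rpl36al was -0.0020 in DESeq2 and -0.034 with more Cd4 than Cd8 UMIs. For CD8 against CD4, without cycling UMIs Rpl3 was 0.031, Rpl39 0.021 and Rpl7l1 -0.058, Rpl7l1 was -0.023 at 3000 to 8000 UMIs, Rpl3 0.0072 with ribosomal protein UMIs as size, and Rpl39l -0.33 in DESeq2 and from -1.04 (without the double-null library) to 0.91 (without the CD226-null library). For Treg-origin against CD8, without cycling UMIs Rpl22 was -0.053, Rpl24 -0.067, Rpl38 -0.020, Rpl39 -0.12, Rps21 -0.085 and Rps24 -0.0075. Rpl10 was 0.055 and Rpl36al 0.017 with ribosomal protein UMIs as size, Rpl10 0.081 and Rpl3 0.0034 at 3000 to 8000 UMIs, and Rpl22 -0.0037 with no filter. Depth limits the Treg-origin class most, with 332 to 462 cells in a library.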

Other observations

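The CD8 cells of the double-null library that held Rpl39l, described here after their values were seen, also held transcripts of other genes more often than the rest. Trdc, the constant region of the T cell receptor delta chain, had a UMI in 181 of the 228 cells with Rpl39l (79.4%) and in 2.13% of the CD8 cells without it. Epha3, an ephrin receptor, had a UMI in 129 (56.6%) and in 6.09%. Of these cells 88 held 3 or more Rpl39l UMIs, and the highest held 9. Median depth was 11486 UMIs with Rpl39l and 9931 without. In the 10, 37 and 10 CD8 cells with Rpl39l of the other libraries, Trdc had no UMI, while Epha3 had one in 3 of the 37 of the CD226-null library (8.11%, against 1.87% without Rpl39l). Among CD4 cells with Rpl39l, Trdc had a UMI in 3 of 26 in the double-null library (11.5%, against 0.502%) and in 1 of 12 in the TIGIT-null library (8.33%, against 0.842%), and in none of the wild-type and CD226-null libraries. These are few cells, and no test was made.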
